A study of Mus musculus with 163 samples.

Results

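*Mc3r*-positive and *Mc3r*-negative neurons were compared within the POMC neurons that hold little *Agrp*. The cells, called MBH Pos, were single neurons sorted by green fluorescence from the micro-dissected medial basal hypothalamus, and each cell gave 1 RNA sequencing library. All came from young adult male *Pomc-eGFP* mice (strain C57/BL6 Tg(Pomc-EGFP)1Low) that had free access to food. Genotype, sex and treatment were the same in all groups, and the exact age of the mouse behind a single cell is not given. Cells were chosen by their measured levels of *Agrp* and *Mc3r*, in log2RPM (log2 of RPM, the reads of a gene per 1 M reads of the cell). Of all sorted neurons 48 had *Agrp* at 10 log2RPM or more and were set apart. Of the Agrp-low neurons that remained, 44 had *Mc3r* at 5 RPM (2.32 log2RPM) or more and are called Mc3r-positive, and the other 71 are called Mc3r-negative. A gene was likewise called expressed in a cell at 5 RPM or more. Every cell carries the same transgene, which reports that *Pomc* regulatory sequences were used and not how much *Pomc* mRNA the cell held at the time of sorting.

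The labels tie no cell to an animal, plate or culture. All cells therefore count together as 1 sample, the SD values are spreads over cells, and no difference below was tested. The groups were set by the level of 1 gene in these same cells, so the differences describe the 2 sets of cells. Recovered depth ran from 1.46 to 35.3 M reads per cell in Mc3r-positive cells (median 7.82 M) and from 2.11 to 41.9 M in Mc3r-negative cells (median 8.10 M). Mc3r-positive cells expressed 7149 ± 592 genes (SD over 44 cells) and Mc3r-negative cells 6468 ± 959 (SD over 71 cells). With cells of at least 4 M reads thinned to 4 M, which left 34 Mc3r-positive and 64 Mc3r-negative cells, the means were 7062 and 6516 genes. Markers of glia or pituitary also differed: 26 of 71 Mc3r-negative cells and 7 of 44 Mc3r-positive cells expressed 3 or more markers of 1 such list, mostly oligodendrocyte genes (19 and 6 cells). The summed oligodendrocyte level ran from 0.344 to 3048 RPM in Mc3r-positive cells and from 0.559 to 151849 RPM in Mc3r-negative cells. No microglial or endothelial marker of the lists used was among the genes measured. The part of glial RNA and of genes per cell in the differences below was not tested, and the differences without those 33 cells, or after another scaling, are given beside many of the genes that they take below 1.

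The melanocortin-3 receptor is a receptor of the Gs-coupled family that raises cAMP when it binds the melanocortin peptides cut from POMC, and AgRP blocks that binding. In the arcuate nucleus it is found on AgRP neurons and on some POMC neurons, where it can let melanocortin peptides act back on the neurons of their own circuit. Mice that lack it accumulate fat and respond poorly to fasting, whereas loss of the related receptor MC4R causes marked overeating. The Y1 and Y5 receptors for neuropeptide Y, the peptide that AgRP neurons release, act through Gi and lower cAMP.

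*Mc3r* lies at chr2:172248492-172251114 on the forward strand (GRCm38). *Npy1r* (chr8:66697192-66706792) and *Npy5r* (chr8:66679965-66688128), the peptide receptor genes with the largest differences between the groups, are neighbours on opposite strands, and their start sites in RefSeq lie 9328 bases apart. The 300 bases around each start site, 250 before and 50 after it, are shown because these genes were found together in the same cells. They come from RefSeq on GRCm38.p6, at chr2:172248242-172248541 for *Mc3r*, chr8:66697172-66697471 for *Npy1r* and chr8:66688045-66688344, reverse strand, for *Npy5r*, and run 5′ to 3′.
Mc3r: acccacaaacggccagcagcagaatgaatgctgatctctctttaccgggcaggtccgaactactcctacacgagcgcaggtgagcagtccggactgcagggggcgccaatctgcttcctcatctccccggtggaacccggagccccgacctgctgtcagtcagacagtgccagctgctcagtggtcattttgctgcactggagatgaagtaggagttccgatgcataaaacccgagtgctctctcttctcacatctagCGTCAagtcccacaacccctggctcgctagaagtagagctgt
Npy1r: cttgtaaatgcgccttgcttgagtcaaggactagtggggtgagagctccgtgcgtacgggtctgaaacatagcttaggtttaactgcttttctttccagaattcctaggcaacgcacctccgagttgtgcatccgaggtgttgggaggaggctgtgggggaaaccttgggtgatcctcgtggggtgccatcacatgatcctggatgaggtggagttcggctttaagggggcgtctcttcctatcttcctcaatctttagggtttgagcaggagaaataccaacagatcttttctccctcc
Npy5r: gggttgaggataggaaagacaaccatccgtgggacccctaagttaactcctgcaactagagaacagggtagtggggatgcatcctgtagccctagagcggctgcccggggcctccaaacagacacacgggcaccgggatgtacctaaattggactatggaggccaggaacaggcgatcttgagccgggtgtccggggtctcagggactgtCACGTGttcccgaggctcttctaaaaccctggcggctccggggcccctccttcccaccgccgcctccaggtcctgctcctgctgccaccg
Capitals mark matches on either strand to the cAMP response element TGACGTCA or its core TGACG, the E-box CACGTG, the homeodomain core TAATTA or the palindromic oestrogen response element. The *Mc3r* window held the TGACG core, read from the reverse strand as CGTCA, 9 bases after the start site. A core of this kind was in 20.8% of 32851 promoter windows of the same length. The *Npy5r* window held an E-box starting 40 bases before the start site, and 7.15% of all windows held one. The *Npy1r* window held none of these motifs. GENCODE starts *Npy1r* at 66697192, before the RefSeq start site at 66697422, so by GENCODE most of that window lies inside the gene. Bases before the GENCODE start were mostly not searched.

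*Mc3r* in the Mc3r-positive cells ran from 2.44 to 8.30 log2RPM with a median of 5.73, which is 5.42 to 315 RPM. These values rested on 20 to 2406 reads per cell, with a median of 361. In the Mc3r-negative cells it ran from -0.91 to 1.49 log2RPM with a median of -0.35. That lowest value stands for 0 reads and was found in 14 cells, while 57 cells held some *Mc3r* reads below 5 RPM, with at most 25 reads in a cell. The nearest cells below the threshold stood at 1.30, 1.45 and 1.49 log2RPM and the nearest above it at 2.44, 2.73 and 2.80, so no cell lay between 1.49 and 2.44. For *Agrp*, the highest Agrp-low cells stood at 6.82, 7.15 and 9.99 log2RPM and the lowest cells left out at 10.12, 10.29 and 10.45.

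Mc3r-positive cells made up 38.3% of the Agrp-low cells (exact Clopper-Pearson 95% interval 29.4% to 47.8%, which like all intervals here covers counting error only). In the 48 cells above the *Agrp* limit the share was 68.8% (33 cells, 53.7% to 81.3%). The labels number the cells, and the share in 3 ranges of these numbers (1 to 66, 67 to 98, and 99 and above) was 35.3%, 40.7% and 38.9%, with overlapping intervals. By *Pomc*, the share was 34.2% of 38 cells from 5 RPM to below 7 log2RPM, 50% of 42 cells from 7 to below 12, and 29.4% of 34 cells at 12 or more, and these intervals overlapped too.

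**Figure D1:**
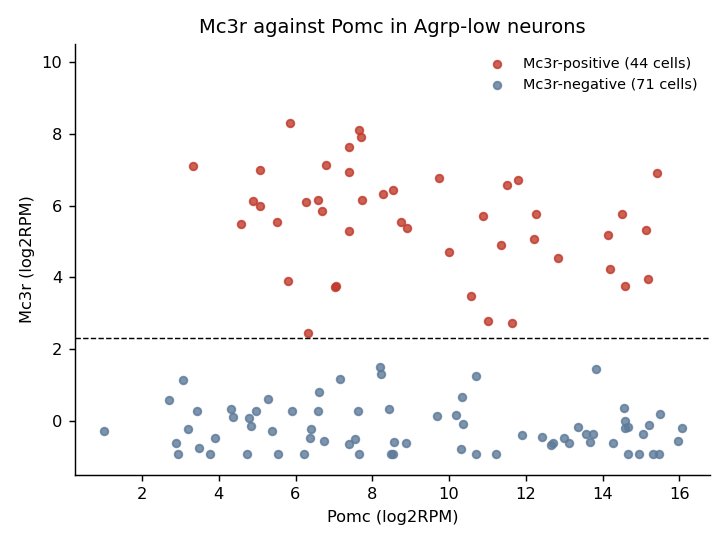
*Mc3r* (y axis, log2RPM) against *Pomc* (x axis, log2RPM) in each Agrp-low neuron, with Mc3r-positive cells in red, Mc3r-negative cells in blue and the 5 RPM threshold as a dashed line. Both groups spread over nearly the whole range of *Pomc*, with medians of 8.40 and 8.54 log2RPM, and no cell has *Mc3r* between 1.49 and 2.44.

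*Pomc*, the precursor of the melanocortin peptides, ran from 3.33 to 15.42 log2RPM in Mc3r-positive cells (median 8.40) and from 1.01 to 16.06 in Mc3r-negative cells (median 8.54). Both means were 9.22 log2RPM, although within the 3 ranges of cell numbers the difference (Mc3r-positive minus Mc3r-negative mean) was 2.40, -1.05 and -1.09. *Cartpt*, which encodes the appetite-reducing peptide CART, ran from 1.69 to 13.94 log2RPM (median 8.20) in Mc3r-positive and from 1.29 to 13.84 (median 4.62) in Mc3r-negative cells. The groups overlapped over almost the whole range, and the means differed by 1.70. In the 3 ranges of cell numbers the *Cartpt* difference was 2.60, 0.98 and 1.39, and over the alternative settings listed at the end it ran from 0.39 to 1.73. *Agrp*, which was low by the choice of cells, differed by 0.34, and *Npy* by 0.28.

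*Mc4r*, the other melanocortin receptor measured, was expressed in 8 of 44 Mc3r-positive cells (18.2%) and in 4 of 71 Mc3r-negative cells (5.63%). Its median was -0.91 log2RPM, or 0 reads, in both groups, and the means differed by 1.12, or by 0.17, 2.43 and 0.96 in the 3 ranges and 0.87 after the rescaling described below. Of the 12 cells that expressed *Mc4r*, 8 also expressed *Mc3r* (66.7%, 34.9% to 90.1%). With *Pomc* at 12 log2RPM or more, 0 of 10 Mc3r-positive and 2 of 24 Mc3r-negative cells expressed *Mc4r*, with a difference of -0.22. In the other cells 8 of 34 and 2 of 47 did, with a difference of 1.52. *Mrap2*, an accessory protein that modulates melanocortin receptors, was expressed in 30 of 44 and 45 of 71 cells, with a difference of 0.52. The list of melanocortin genes, which also held *Cartpt*, had 8 members measured other than *Mc3r* itself and *Agrp*. Of these, 2, *Cartpt* and *Mc4r*, were at least 1 higher, 0 were lower, and the median difference was 0.49. Of all genes, 8.37% were at least 1 higher and 1.12% at least 1 lower.

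Over 12185 genes other than *Mc3r* and *Agrp*, 1020 (8.37%) were at least 1 log2 unit higher in Mc3r-positive cells and 1.12% at least 1 lower, and the median difference was 0.21. This split goes with the scaling. When each cell was rescaled by its mean over 2711 genes found in at least 90% of cells, 472 genes were higher and 360 lower, the share of higher genes among those called went from 88.2% to 56.7%, and the median difference moved to -0.043. "Higher" and "lower" below mean a difference of at least 1 in the deposited scaling, which lies about 0.26 above the rescaled one. Counts of higher and lower members of gene lists below stand beside these shares of 8.37% and 1.12% of all genes. Among genes expressed in at least 50% of the cells of their higher group, the 15 largest positive and 15 largest negative differences were taken. Rescaling moves every difference down by the same amount, about 0.26, so it could not bring any of these 30 within 1. All 30 stayed past 1 without the cells holding markers of another cell type, and without the cells with *Pomc* at 12 log2RPM or more. They were picked from these same cells, so this is no independent support.

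Among the receptors for hormones and peptides of energy balance, 2 receptors for neuropeptide Y had the largest differences. *Npy5r* ran from -0.63 to 9.12 log2RPM in Mc3r-positive cells (median 6.58) and from -0.91 to 9.33 in Mc3r-negative cells (median 1.31). It was expressed in 34 of 44 and 26 of 71 cells, and the means differed by 2.94. *Npy1r* ran from 0.86 to 9.64 log2RPM (median 7.41) and from 0.12 to 9.42 (median 2.93), was expressed in 38 of 44 and 41 of 71 cells, and differed by 2.60. In both genes most Mc3r-positive cells were high, whereas the Mc3r-negative cells fell into high and low cells, so the ranges overlapped over almost their whole length and the groups differed in how many cells were high.

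Cells with both receptors made up 75% of Mc3r-positive cells (33 of 44, 59.7% to 86.8%) and 29.6% of Mc3r-negative cells (21 of 71, 19.3% to 41.6%). Neither receptor was expressed in 5 Mc3r-positive and 25 Mc3r-negative cells. Read the other way, *Mc3r* was expressed in 56.7% of the 60 cells with *Npy5r* and in 18.2% of the 55 cells without it. *Npy2r*, the receptor through which peptide YY acts on arcuate neurons, was split differently, with 21 of 44 and 35 of 71 cells and a difference of 0.19. In the 3 ranges of cell numbers the difference of *Npy5r* was 2.84, 2.63 and 3.18 and that of *Npy1r* 2.0, 1.39 and 3.49.

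**Figure D2:**
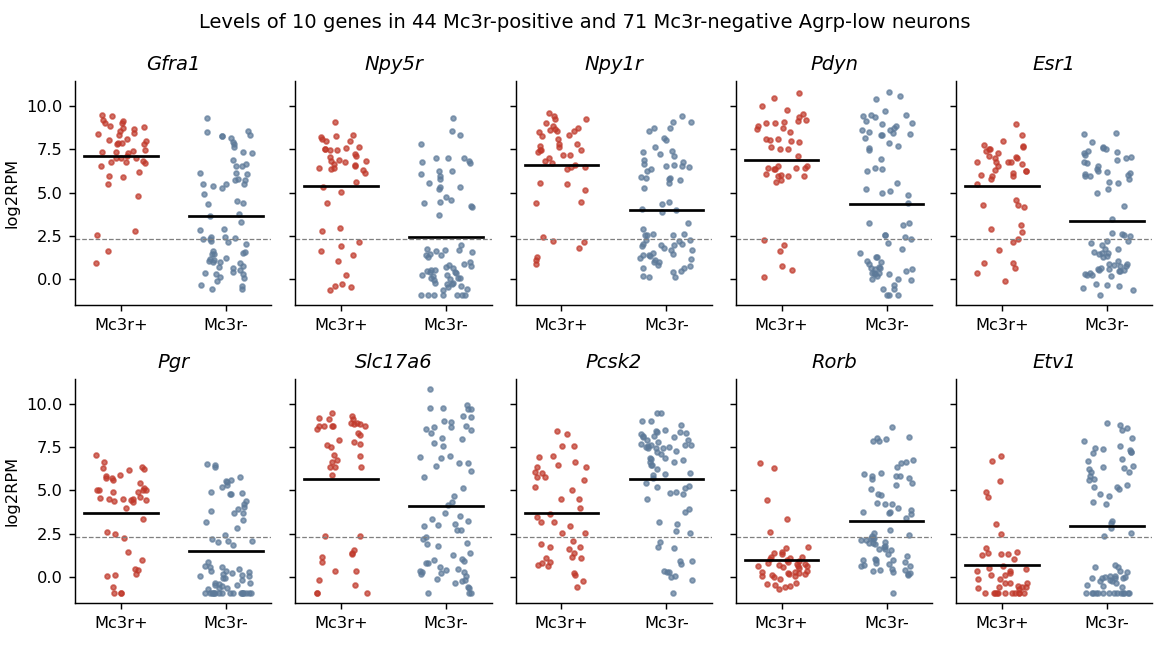
Levels (y axis, log2RPM) of 10 genes in each of 44 Mc3r-positive cells (red) and 71 Mc3r-negative cells (blue), where each point is a cell, the black bar is the group mean and the dashed line is 5 RPM. *Gfra1*, the NPY receptors, *Pdyn*, *Esr1*, *Pgr* and *Slc17a6* have higher means in Mc3r-positive cells and *Pcsk2*, *Rorb* and *Etv1* lower ones, while single cells of both groups overlap in every panel.

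In all, 49 receptors for hormones and peptides of energy balance were measured, of which 10 were higher and 2 lower, with a median of 0.19 against 0.21 for all genes. Of all genes 8.37% were higher and 1.12% lower. After rescaling 7 of the 49 were higher and 2 lower, when 472 and 360 of all 12185 genes were. *Esr1* and *Pgr*, receptors for female sex steroids, were among the higher ones. *Esr1*, oestrogen receptor alpha, ran from -0.08 to 8.95 log2RPM (median 6.25) in Mc3r-positive and from -0.91 to 8.47 (median 2.23) in Mc3r-negative cells, with 37 of 44 and 35 of 71 cells expressing it and a difference of 1.98. *Pgr*, the progesterone receptor, whose transcription oestrogen raises in many tissues, had medians of 4.52 and 0.35 log2RPM, was expressed in 32 of 44 and 24 of 71 cells and differed by 2.22. Both were expressed together in 30 Mc3r-positive cells (68.2%, 52.4% to 81.4%) and 15 Mc3r-negative cells (21.1%, 12.3% to 32.4%).

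*Hcrtr2*, an orexin receptor, and *Calcr*, the calcitonin receptor through which amylin also acts, were higher by 1.52 and 1.49, in 27 of 44 against 27 of 71 cells and in 16 of 44 against 12 of 71. *Hcrtr2* was 0.85 higher without the cells holding markers of another cell type. *Hrh3*, a histamine receptor, was the 1 amine or acetylcholine receptor of 20 measured that was higher, by 1.51, and none was lower. Its difference was 0.93 at 4 M reads.

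*Cckar*, the cholecystokinin receptor, was expressed in 5 of 44 Mc3r-positive and 22 of 71 Mc3r-negative cells, and its mean was lower, with a difference of -1.39. Among the 34 cells with the highest *Pomc* it was expressed in 3 of 10 Mc3r-positive and 15 of 24 Mc3r-negative cells, and without those cells the difference was -0.70. *Cnr1*, the cannabinoid receptor, was expressed in 8 of 44 and 26 of 71 cells, with a difference of -1.28. The leptin receptor *Lepr* was expressed in 8 of 44 and 12 of 71 cells (difference 0.26), the insulin receptor *Insr* in 31 of 44 and 40 of 71 (0.25), and the serotonin receptor *Htr2c* in 12 of 44 and 22 of 71 (-0.07). None of these last 3 genes reached a difference of 1 over all Agrp-low cells. Among the cells highest in *Pomc*, however, *Lepr* differed by 2.38 (5 of 10 against 5 of 24 cells). In the other cells *Lepr* differed by -0.34 (3 of 34 against 7 of 47 cells). *Insr* and *Htr2c* did not reach 1 in either set.

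Genes of leptin and insulin signalling numbered 25, with a median difference of 0.24. *Irs4*, an insulin receptor substrate of the hypothalamus, was expressed in all 44 Mc3r-positive cells, at 2.89 to 10.42 log2RPM (median 8.23), and in 64 of 71 Mc3r-negative cells, at -0.55 to 10.48 (median 7.29), and differed by 1.70.

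*Gfra1*, the receptor subunit that binds GDNF and hands it to the kinase RET, had the largest difference of all genes measured. It ran from 0.97 to 9.49 log2RPM in Mc3r-positive cells (median 7.44) and from -0.55 to 9.32 in Mc3r-negative cells (median 2.85). It was expressed in 42 of 44 and 40 of 71 cells and differed by 3.52, or by 3.61, 2.90 and 3.71 in the 3 ranges. *Ret* itself was expressed in 9 of 44 and 9 of 71 cells and differed by 0.38.

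Peptide genes and the enzymes that cut them showed differences both ways. *Pdyn*, the precursor of the opioid dynorphin, ran from 0.14 to 10.74 log2RPM (median 7.54) in Mc3r-positive and from -0.91 to 10.80 (median 3.28) in Mc3r-negative cells. It was expressed in 38 of 44 and 41 of 71 cells and differed by 2.55, although by 1.03 in cells 67 to 98. *Gal*, the precursor of galanin, was expressed in 25 of 44 and 23 of 71 cells and differed by 1.52. *Nmb*, the precursor of neuromedin B, was expressed in 16 of 44 and 8 of 71 cells and differed by 1.23, and *Adcyap1*, the precursor of PACAP, in 5 of 44 and 16 of 71 with a difference of -1.18. The difference of *Nmb* was 0.98 after rescaling and that of *Adcyap1* -0.96 without the cells holding other markers. *Sst*, the precursor of somatostatin, differed by -0.34. Of 21 peptide and growth factor genes 3 were higher and 1 lower, beside 8.37% and 1.12% of all genes, with a median of -0.16.

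*Pcsk2*, which encodes the convertase PC2 that cuts ACTH on the way to alpha-MSH and releases beta-endorphin, was lower. It ran from -0.60 to 8.46 log2RPM (median 3.34) in Mc3r-positive and from -0.91 to 9.50 (median 6.67) in Mc3r-negative cells. It was expressed in 27 of 44 and 58 of 71 cells and differed by -1.95, or by -2.07, -2.12 and -1.69 in the 3 ranges. *Pcsk1*, which encodes PC1/3, the convertase that cuts POMC first, was expressed in 37 of 44 and 49 of 71 cells and differed by 0.78. Cells with *Pcsk1* but not *Pcsk2* were 36.4% of Mc3r-positive (16 of 44, 22.4% to 52.2%) and 11.3% of Mc3r-negative cells (8 of 71, 4.99% to 21%).

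*Pam*, which amidates peptides such as alpha-MSH, was expressed in 42 of 44 and 68 of 71 cells at medians of 6.55 and 7.78 log2RPM and differed by -1.0, with -0.30, -0.31 and -1.74 in the ranges. *Cpe*, the carboxypeptidase that trims the cut ends, was expressed in every cell of both groups and differed by -0.10. Of 13 processing and granin genes 0 were higher and 2, *Pcsk2* and *Pam*, were lower, beside 8.37% and 1.12% of all genes.

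Both groups held cells that expressed glutamate and GABA genes together. *Slc17a6*, the vesicular glutamate transporter, ran from -0.91 to 9.48 log2RPM (median 7.27) in Mc3r-positive and from -0.91 to 10.87 (median 3.21) in Mc3r-negative cells, and was expressed in 32 of 44 and 41 of 71 cells. Its difference of 1.55 was -0.57, 1.44 and 2.95 in the 3 ranges, 0.72 without the cells highest in *Pomc* and 0.71 without the cells holding other markers. Among the cells highest in *Pomc*, all 10 Mc3r-positive and 12 of 24 Mc3r-negative cells expressed it. *Gad1*, which makes GABA, was expressed in 41 of 44 and 60 of 71 cells (difference 0.70) and *Slc32a1*, which loads GABA into vesicles, in 10 of 44 and 17 of 71 (0.02). *Slc17a6* and *Gad1* were expressed together in 29 of 44 and 36 of 71 cells. *Slc6a11*, a GABA transporter, was the other gene of 11 that was higher, by 1.19, and by 0.94 after rescaling.

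Genes of the Gs, cAMP and protein kinase A pathway, through which MC3R signals, numbered 42, of which 5 were higher and 1 lower (median 0.38), beside 8.37% and 1.12% of all genes. *Pde4b*, a phosphodiesterase that degrades cAMP, was expressed in 39 of 44 and 40 of 71 cells at medians of 6.46 and 4.48 log2RPM and differed by 2.06, but by 0.02 in cells 1 to 66. *Rgs7*, which shortens Gi signals, was expressed in 41 of 44 and 43 of 71 cells and differed by 1.90, with 1.08, 3.71 and 1.47 in the ranges. *Adcy2*, an adenylyl cyclase, was expressed in 8 of 44 and 30 of 71 cells and was lower, with a difference of -1.93 (-2.79, -1.02 and -1.69).

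*Adcy3*, another cyclase, was higher by 1.60, in 18 of 44 and 11 of 71 cells, though it shares 1221 exon bases with *Cenpo* on the opposite strand. Counting by strand is not described, so some of its reads may be of that gene. *Prkar2b*, a regulatory subunit of the kinase, and *Akap12*, which anchors it, were higher by 1.14 and 1.12, and by 0.88 and 0.87 after rescaling. In this pathway 3 of 42 genes were higher and 2 lower after rescaling, when 472 and 360 of all 12185 genes were.

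**Figure D3:**
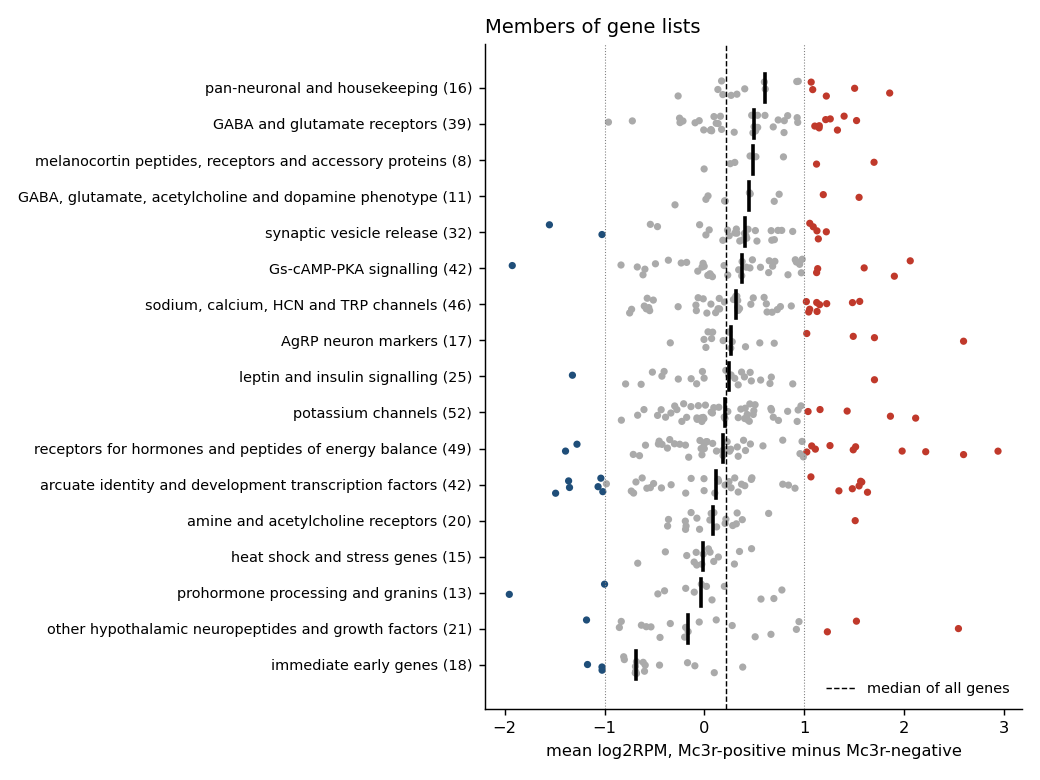
Difference of mean log2RPM (x axis, Mc3r-positive minus Mc3r-negative) of each measured member of 17 gene lists, with list size in parentheses, the list median as a black bar and the median of all genes, 0.21, as a dashed line. Members at least 1 higher are red and members at least 1 lower are blue. The immediate early genes have the lowest list median, -0.68, and the pan-neuronal genes the highest, 0.61.

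Among potassium channel genes 5 of 52 were higher and 0 lower (median 0.20), a share of higher genes close to the 8.37% of all genes. *Kcnip1*, a subunit of A-type channels, ran from 2.11 to 9.64 log2RPM (median 7.15) in Mc3r-positive and from -0.91 to 9.07 (median 6.06) in Mc3r-negative cells and differed by 2.12. *Kcna4*, a pore subunit of such channels, was expressed in 22 of 44 and 11 of 71 cells and differed by 1.86, and *Kcnt1*, a sodium-activated channel, in 21 of 44 and 16 of 71 with 1.43. *Kcnh7* and *Kcnd3* were higher by 1.16 and 1.04, and by 0.90 and 0.78 after rescaling, and *Kcnh7* shares 696 exon bases with *Gca* on the opposite strand.

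Of 46 sodium, calcium, HCN and TRP channel genes 9 were higher and 0 lower (median 0.32), beside 8.37% and 1.12% of all genes. After rescaling 2 of the 46 were higher and 1 lower, and without the cells holding other markers 5 and 2. *Scn3b*, an auxiliary sodium channel subunit, was expressed in 34 of 44 and 33 of 71 cells and differed by 1.56. *Trpc7* and *Trpc5*, receptor-operated cation channels, were expressed in 29 of 44 against 27 of 71 and in 33 of 44 against 40 of 71 cells, and differed by 1.48 and 1.13. The difference of *Trpc7* was 0.90 without the cells holding other markers, and that of *Trpc5* was 0.87 after rescaling and 0.23 among the cells highest in *Pomc*. *Scn9a*, the channel NaV1.7, was expressed in all 44 Mc3r-positive cells, from 4.93 to 9.51 log2RPM, and in 62 of 71 Mc3r-negative cells, from 0.68 to 10.14. It differed by 1.23, and by 0.97 after rescaling and 0.58 without the cells holding other markers.

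Of 39 GABA and glutamate receptor genes 8 were higher and 0 lower (median 0.50), beside 8.37% and 1.12% of all genes. After rescaling 4 of the 39 were higher and 1 lower, and without the cells holding other markers 3 and 1. The GABA-A receptor subunits *Gabrq* and *Gabra3* were higher by 1.52 and 1.40. *Gabrq* was expressed in 41 of 44 and 49 of 71 cells, at medians of 6.92 and 5.33 log2RPM. *Gria1*, an AMPA receptor subunit, was expressed in all 44 Mc3r-positive cells and in 63 of 71 Mc3r-negative cells and differed by 1.26, but by -0.29 in cells 67 to 98. *Gabrg1* and *Glra3*, a subunit of the glycine receptor, were higher by 1.15 and 1.22, and by 0.90 and 0.96 after rescaling.

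Synaptic vesicle release had 5 higher and 2 lower of 32 genes (median 0.41), beside 8.37% and 1.12% of all genes. After rescaling 0 were higher and 2 lower, and without the cells holding other markers 2 and 2. *Cadps2*, a priming factor of dense-core vesicles, was expressed in 15 of 44 and 37 of 71 cells and differed by -1.55, and *Rab3b*, a vesicle GTPase, had medians of 7.69 and 8.70 log2RPM and differed by -1.03. Rescaling moves every difference down, so it could not bring either lower gene within 1. Among the cells highest in *Pomc*, *Cadps2* differed by -1.25 and *Rab3b* by -1.05. In the other cells the differences were -1.52 and -0.65 in the same order. The higher ones included the calcium sensors *Syt1* (1.22), *Syt2* (1.14) and *Syt5* (1.09) and the vesicle protein *Sv2c* (1.06). *Synpr*, a synaptic vesicle protein outside that list, was expressed in 35 of 44 and 24 of 71 cells at medians of 7.50 and 1.44 log2RPM and differed by 3.17.

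Of 16 general neuronal and housekeeping genes 5 were higher and 0 lower, beside 8.37% and 1.12% of all genes, with a median of 0.61. *Nefl* and *Nefm*, neurofilament subunits that share 1108 exon bases on opposite strands, were higher by 1.86 and 1.51. *Tubb3*, the neuronal tubulin, ran from 7.72 to 10.29 log2RPM in Mc3r-positive and from 2.06 to 10.34 in Mc3r-negative cells, and *Gap43*, a growth cone protein, from 9.03 to 11.48 and from 3.29 to 11.73. In both genes the Mc3r-negative cells reached as high and stretched further down, and the differences were 1.09 and 1.07. After rescaling 2 of these 16 genes were higher, and without the cells highest in *Pomc* 1 was. *Snap25*, a SNARE of every neuron, was expressed in every cell of both groups and differed by 0.18.

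Transcription factors of arcuate identity and development divided into 7 higher and 6 lower of 42, with a median of 0.12, and into 6 and 7 after rescaling. All genes divided into 8.37% higher and 1.12% lower, and after rescaling into 472 and 360 of 12185. *Isl1*, which arcuate neurons need to turn on *Pomc*, was expressed in 42 of 44 and 52 of 71 cells at medians of 7.36 and 6.73 log2RPM and differed by 1.57. *Tbx3*, which maintains arcuate peptide neurons, was expressed in 42 of 44 and 49 of 71 cells and differed by 1.58. Its difference was 2.08, 0.64 and 1.65 in the 3 ranges, and 0.20 to 2.54 over the alternative settings. *Nr5a2*, an orphan nuclear receptor, was expressed in 16 of 44 and 4 of 71 cells and *Sox14* in 12 of 44 and 4 of 71, with differences of 1.63 and 1.35. *Mef2c* and *Tcf7l2*, an effector of Wnt signalling, were higher by 1.55 and 1.48, though *Mef2c* by 0.13 in cells 1 to 66. The difference of *Tcf7l2* ran from 0.33 to 2.81 over the alternative settings.

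Lower factors included *Tcf4*, *Six3*, *Bcl11a*, *Prox1* and *Lhx2*. *Six3*, a homeobox factor of the ventral forebrain, was expressed in 26 of 44 and 54 of 71 cells and differed by -1.36, and *Bcl11a* in 4 of 44 and 21 of 71 with -1.35. *Tcf4*, an E-protein, was expressed in 32 of 44 and 61 of 71 cells at medians of 4.89 and 5.88 log2RPM and differed by -1.49. The differences of *Prox1* and *Lhx2* were -1.07 and -1.02, and that of *Prox1* was -0.74 without the cells holding other markers. Among the cells highest in *Pomc*, *Prox1* differed by 0.003, *Six3* by -0.23, *Tcf4* by -0.62, *Bcl11a* by -0.81 and *Lhx2* by -1.34. In the other cells the differences were -0.97, -1.34, -1.68, -1.43 and -0.75 in the same order.

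Among all genes, the largest negative difference belonged to *Rorb*, a nuclear receptor related to the clock factors. It ran from -0.72 to 6.57 log2RPM (median 0.64) in Mc3r-positive and from -0.91 to 8.68 (median 2.38) in Mc3r-negative cells, with 5 of 44 and 36 of 71 cells expressing it, and differed by -2.26 (-2.53, -1.87 and -2.27 in the ranges). *Etv1*, an ETS transcription factor, was expressed in 7 of 44 and 37 of 71 cells and differed by -2.24. *Insig1*, which holds the sterol sensor in the endoplasmic reticulum, was expressed in 9 of 44 and 38 of 71 cells (-1.92), *Hlf*, a clock-driven bZIP factor, in 18 of 44 and 52 of 71 (-1.91), and *Klf9*, a glucocorticoid-responsive zinc finger factor, in 13 of 44 and 37 of 71 (-1.81). These genes were low in most Mc3r-positive cells and high in only part of the Mc3r-negative cells.

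The rest of the 15 largest negative differences ran from -1.68 for *Tshz2*, a zinc finger factor, to -1.53 for *Dbi*, the acyl-CoA binding protein from which endozepines are cut. *Epha5*, an ephrin receptor, was expressed in 20 of 44 and 53 of 71 cells and differed by -1.67, and *Dbi* in 33 of 44 and 62 of 71. Between them lay *Cxxc5*, *Pbxip1*, *Prickle2*, *Fam159b*, *Cadps2* and *Pdlim5*, from -1.63 to -1.53.

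The remaining genes of the 15 largest positive differences included adhesion molecules and a peptidase. *Ecel1*, a neuronal metallopeptidase, ran from 1.32 to 10.93 log2RPM (median 8.68) in Mc3r-positive and from -0.01 to 10.05 (median 6.16) in Mc3r-negative cells, with 43 of 44 and 51 of 71 cells expressing it and a difference of 2.89. *Tmem215*, a transmembrane protein, was expressed in 27 of 44 and 9 of 71 cells at medians of 5.44 and -0.38 log2RPM, with a difference of 3.43. In the cells highest in *Pomc* it was expressed in 3 of 10 Mc3r-positive and 4 of 24 Mc3r-negative cells, with a difference of 0.95 against 4.16 in the other cells.

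*Cdh9*, a cadherin, was expressed in 30 of 44 and 19 of 71 cells (2.84, or 0.23 among the cells highest in *Pomc* and 3.36 in the others), *Chl1*, an adhesion molecule of the L1 family, in 38 of 44 and 43 of 71 (2.27), and *Lamp5*, a lysosome-associated protein of GABA neurons, in 23 of 44 and 12 of 71 (2.58). The others were *Rbms3*, an RNA-binding protein, at 2.64, *Kctd4* at 2.60, *Syndig1*, which regulates synapse formation, at 2.41, *Aard* at 2.39 and *Nos1ap*, an adaptor of neuronal nitric oxide synthase, at 2.32.

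These genes were counted together in single cells. Each set of 15 was picked by its differences between these same cells, so the gap in these counts follows largely from that choice. The splits by *Mc3r*, cell number and *Pomc* below reuse the same cells, so signs kept there are no independent support. Of the 15 genes with the largest positive differences a Mc3r-positive cell expressed between 4 and 15, with a median of 13, and a Mc3r-negative cell between 0 and 14, with a median of 7. At least 10 of them were expressed in 38 of 44 Mc3r-positive and 15 of 71 Mc3r-negative cells, and 5 or fewer in 2 and 31 cells. Of the 15 genes with the largest negative differences, medians of 6 and 10 were expressed. So some Mc3r-negative cells expressed most of the 15 genes with the largest positive differences.

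The Mc3r-positive cells were also divided at their median of *Mc3r*. The 22 cells with more *Mc3r* had a higher mean than the 22 with less in 2 of the 15 genes with the largest positive differences, by less than 1, and a lower mean in the other 13. *Npy5r* went from 5.99 to 4.76 log2RPM, *Synpr* from 6.53 to 5.40 and *Syndig1* from 5.12 to 3.93. Among the 15 genes with the largest negative differences, 7 were lower in the cells with more *Mc3r*, 3 of them by 1 or more. *Pomc* went from 10.23 to 8.20 log2RPM and *Cartpt* from 9.35 to 6.61, whereas *Sox14* went from -0.16 to 2.22 and *Kcnt1* from 1.39 to 3.62, genes picked after these values were seen. The 22 Mc3r-positive cells with less *Mc3r* were above the 57 Mc3r-negative cells with some *Mc3r* reads by 1 or more in all 15 genes with the largest positive differences. Those 57 cells were above the 14 cells with 0 reads in 9 of 15, and by 1 or more in 4. *Npy1r*, for example, had means of 4.35, 3.92, 6.78 and 6.42 log2RPM from 0 reads of *Mc3r* to its highest bin. Cells with few *Mc3r* reads were not spread evenly over the ranges of cell numbers. The share at 1 RPM or more was 70.6%, 40.7% and 59.3% in the 3 ranges, against 35.3%, 40.7% and 38.9% at 5 RPM. Below 5 RPM, the level of *Mc3r* therefore cannot be told apart from cell number.

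Across the 3 ranges of cell numbers, all 15 genes with the largest positive differences kept their sign in each range, and 13 were past 1 in each. The exceptions were *Syndig1* (0.98) and *Chl1* (0.48) in cells 1 to 66. Of the 15 with the largest negative differences 11 kept their sign and 5, *Rorb*, *Etv1*, *Pcsk2*, *Insig1* and *Epha5*, were past -1 in each range. Over all 1020 higher genes 885 kept their sign in each range and 168 were past 1 in each, and 13 of the lower genes were past -1 in each. The share of all genes at least 1 higher was 12.5%, 29% and 12.7% in the 3 ranges, which hold 12, 11 and 21 Mc3r-positive cells.

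**Figure D4:**
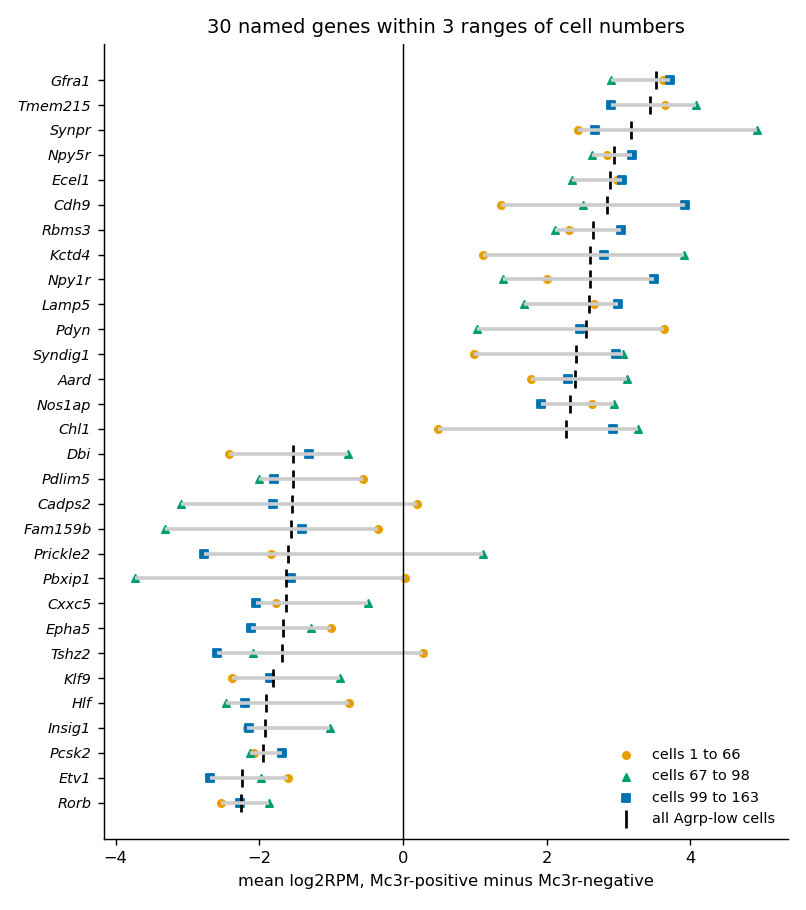
Difference of mean log2RPM (x axis, Mc3r-positive minus Mc3r-negative) of the 15 genes with the largest positive and the 15 with the largest negative difference in cells 1 to 66 (orange circles), 67 to 98 (green triangles) and 99 and above (blue squares), with the difference over all Agrp-low cells as a black bar and a grey line from the lowest to the highest range. Every gene of the upper set lies right of 0 in each range, between 0.48 and 4.93, while *Tshz2*, *Pbxip1*, *Prickle2* and *Cadps2* cross 0.

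The comparison was also made within 2 levels of *Pomc*. In the 34 cells with *Pomc* at 12 log2RPM or more (10 Mc3r-positive) all 15 genes with the largest positive differences were higher in mean, 13 of them by 1 or more, and in the other 81 cells all 15 were past 1. Of the 15 genes with the largest negative differences 14 had the same sign in the cells highest in *Pomc*, 12 of them past -1, with *Fam159b* at 0.34 and *Dbi* at -0.24, and in the other cells all 15 were past -1. *Npy5r* differed by 4.07 and 2.43, *Npy1r* by 2.52 and 2.80 and *Gfra1* by 3.29 and 3.68. *Cartpt* differed by 3.59 and 1.57, and *Pdyn* by 1.48 and 3.40.

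In the 48 cells above the *Agrp* limit, 33 of them Mc3r-positive, the differences of the same genes stand beside these, and the contrast between Agrp-low and Agrp-high cells was not tested. Of the 15 genes with the largest positive differences 1, *Npy1r*, was past 1 there (1.39), 6 had the same sign and the median was -0.46, while over all 12185 genes 452 were past 1 and the median was -0.08. *Npy5r* differed by -0.69, *Gfra1* by 0.21, *Pdyn* by 0.16, *Esr1* by -0.81 and *Pgr* by -1.54. *Pcsk2* differed by -0.32 and *Rorb* by -0.27. Agrp-high cells expressed a median of 7 of the 15 genes whether or not they expressed *Mc3r*.

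Immediate early genes, which respond to activity and to handling, had a median difference of -0.68 over 18 genes, with 0 higher and 3, *Jun*, *Fos* and *Nr4a1*, lower, at -1.17, -1.03 and -1.03. Of all genes 8.37% were higher and 1.12% lower. In the 3 ranges *Fos* differed by -1.24, 1.38 and -2.03. Without the cells holding markers of another cell type, 0 of the 18 were lower and the median was -0.27. The 15 heat shock and stress genes had a median of -0.01, and 0 of them were past 1 in either direction.

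Genes that mark AgRP neurons numbered 17 besides *Agrp*, of which 4 were higher in Mc3r-positive cells, *Npy1r*, *Irs4*, *Calcr* and *Acvr1c* (1.03), and 0 lower. Of all genes 8.37% were higher and 1.12% lower. *Acvr1c* differed by 0.77 after rescaling, by 3.80 among the cells highest in *Pomc* (9 of 10 against 5 of 24 cells) and by 0.25 in the others. *Npy*, *Lepr*, *Gad1*, *Slc32a1*, *Npy2r* and *Sst*, also on that list, did not reach a difference of 1 over all Agrp-low cells. Among the cells highest in *Pomc*, *Lepr*, *Gad1* and *Npy2r* did, at 2.38, 1.65 and 1.41. The 4 astrocyte and tanycyte genes, 5 oligodendrocyte genes, 2 precursor genes and 4 pituitary genes measured had medians of -0.51, -0.60, -0.42 and -0.64, and 0 of them were past 1 in either direction.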

How the data were processed

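The labels describe 163 single Pomc-EGFP neurons, sorted into plates, amplified with SMART-Seq v4, made into Nextera XT libraries and sequenced as single 50-base reads. The submitters' processing notes name CASAVA 1.7, TopHat2 2.0.11, Cufflinks 2.2.1, edgeR and limma, without versions for the last pair, and GRCm38. The table deposited by the authors gives log2 of RPM with a prior count, normalized and limited to 12187 genes, each at 5 RPM or more in 7 or more cells, and its values were not altered. No batch adjustment was made, since the labels name no batch.

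Depth was found from the smallest step between values in a cell. Of values of 1 to 20 reads, 99.3% came out within 0.1 of whole. At the median depth of 8.09 M reads, 3 reads are 0.371 RPM, so precision at 5 RPM is lowest in the shallowest cells. Positive and negative cells were compared by the difference of mean log2RPM, called at 1 or -1, and by shares of cells at 5 RPM. Because 163 cells are 1 sample, no test was run. On simulated data with known answers the calls were recovered.

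The genes named are the 15 with the largest difference each way, found in 50% or more of the higher group's cells, members of the gene lists past 1 (at most 6 each way, by size) and fixed examples such as *Lepr*. Some genes that this rule names are not reported here. *Snap25* and *Ret* were added after their values were seen. Members and lists were chosen with earlier results of these data known, so no pattern counts as independent support. Lists of clock, sterol, GDNF receptor, calcium-binding, steroid receptor, cadherin, Eph and teneurin genes were added after values were seen.

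Alternatives were *Mc3r* thresholds of 1 and 10 RPM, negatives at the lowest value alone, *Agrp* limits of 7 log2RPM or none, pseudocounts of 5 and 0.1 RPM, leaving out genes found in under 10% of cells, at least 4 M reads, thinning to 4 M reads (9 Mc3r-positive and 7 Mc3r-negative shallower cells left out), rescaling by the mean of 2711 genes common to 90% or more of cells, leaving out cells with markers of another cell type or with high or low *Pomc*, and the mean over ranges of cell numbers. Gene positions and exon overlaps come from GENCODE M21 and promoters from RefSeq on GRCm38.p6. Tools were matplotlib 3.10.9, scipy 1.17.1, pandas 2.3.3 and numpy 2.4.6 under Python 3.11.15.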

Additional observations from a re-analysis of the deposited data

How the results depend on the processing

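The number of genes at least 1 higher, 1020 as deposited, was 3332 with negatives at 0 reads of *Mc3r*, 524 with no *Agrp* limit, 1733 and 150 with pseudocounts of 0.1 and 5 RPM, and 472 after rescaling. The number at least 1 lower, 1.12% of 12185 genes as deposited, was 409, 69, 239, 29 and 360 in the same order, 88 with an *Mc3r* threshold of 1 RPM, 212 with at least 4 M reads, 209 after thinning and 268 without cells with *Pomc* at 12 log2RPM or more. The median difference over all genes was 0.45 with negatives at 0 reads, 0.0801 with a pseudocount of 5 RPM and -0.043 after rescaling. Mc3r-positive cells numbered 67 at 1 RPM and 77 with no *Agrp* limit. The 14 negatives at 0 reads were spread unevenly over the ranges of cell numbers, so that setting also changes the mix of ranges.

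Of the 15 genes with the largest positive differences, 15 stayed past 1 under 13 of 15 alternatives, against 14 at 1 RPM and 12 with no *Agrp* limit. Of the 15 with the largest negative ones 15 did so under 11 alternatives, against 11 at 1 RPM, 14 with negatives at 0 reads, 9 with no *Agrp* limit and 14 with a pseudocount of 5 RPM. Not every alternative could change these counts. Leaving out genes found in under 10% of cells keeps each difference as it was, and rescaling lowers all differences by the same small amount. Leaving out cells with low *Pomc* removed 1 cell. Among differences past 1 as deposited, those of other sign under an alternative were *Adcyap1* 0.027 at 1 RPM, *Lhx2* 0.054, *Jun* 0.036 and *Fos* 0.55 with negatives at 0 reads, and *Pdlim5* 0.10, *Slc17a6* -0.22, *Prox1* 0.039 and *Trpc5* -0.12 with no *Agrp* limit. *Pomc*, *Npy*, *Lepr*, *Insr*, *Htr2c*, *Npy2r*, *Sst*, *Gad1*, *Slc32a1* and *Cpe*, whose differences did not reach 1, also took the other sign under at least 1 alternative. The cause was not tested. No paired analysis was possible because the cells form 1 group with no pairing and no test was run.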

Other observations

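Lists added after values were seen are given as description. Their counts stand beside 8.37% of all genes at least 1 higher and 1.12% at least 1 lower. Of 15 cadherin genes named *Cdh* and a number 5 were at least 1 higher in Mc3r-positive cells, led by *Cdh9*, and 0 were lower (median 0.73, or 0.48 and 4 higher after rescaling). *Cdh11*, *Cdh8*, *Cdh12* and *Cdh15* were higher by 1.64, 1.61, 1.51 and 1.08. Of 18 teneurin, contactin and neurexin genes 3 were higher, *Cntn3* (1.67), *Cntnap2* (1.39) and *Cntnap5c* (1.26), and *Cntn4* was lower (-1.19). Of 15 Eph receptors and ephrins *Epha4* was higher (1.33) and *Epha5* (-1.67) and *Epha7* (-1.05) were lower. Of 19 calcium-binding genes 3 were higher and 0 lower, against 1 and 3 after rescaling. *Calb2*, the buffer calretinin, ran from 2.57 to 10.89 log2RPM in Mc3r-positive cells (median 8.47) and from -0.59 to 10.90 in Mc3r-negative cells (median 6.74), and differed by 2.25.

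Clock genes went both ways, with 1 higher and 4 lower of 22 (median -0.25, or 0.11 without the cells holding markers of another cell type). Besides *Rorb* and *Hlf*, *Arntl*, the clock activator BMAL1, was expressed in 20 of 44 and 44 of 71 cells and differed by -1.29, and *Rora* by -1.22. *Ciart*, a repressor of the clock, was expressed in 20 of 44 and 13 of 71 cells and was higher by 1.74, with 1.59, 1.52 and 2.0 in the 3 ranges of cell numbers. The time of day at which cells were taken is not given for any cell.

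Of 26 sterol genes 0 were higher and 2, *Insig1* and *Srebf2* (-1.27), were lower, with a median of -0.13. Of 6 receptors for GDNF and neurotrophins *Gfra1* was higher, and of 5 steroid receptors *Esr1* and *Pgr* were, while the glucocorticoid receptor *Nr3c1* differed by -0.71.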
